A study of Mus musculus with 16 samples.

Results

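Tamoxifen was compared with its oil vehicle in wild-type female mice, in a block of tissue holding the preoptic area and the hypothalamus (hypothalamus-POA). Transcripts of single cells were counted by Drop-seq, a droplet method that tags each captured molecule with a unique molecular identifier (UMI). The comparison took 8 of the 16 libraries of the study, those labelled as wild-type: 3 oil libraries (S1, S5 and S10) and 5 tamoxifen libraries (S3, S8, S9, S13 and S16), each from 1 mouse. The mice were of a mixed CD-1;129P2 background and, per the methods of the study, were Cre-negative littermates from a line with a floxed Esr1 allele, which was therefore not deleted in either group. They were 8 to 10 weeks old at the start, received 28 daily subcutaneous injections of oil or of tamoxifen at 0.1 mg/kg, and were collected 2 h after the last injection. A dissected block of tissue was dissociated whole, without a sort. Barcodes were kept between 200 and 4000 genes (both exclusive) and under 15% of UMIs on mitochondrial genes, which gave 8220 cells from the oil mice and 21587 from the tamoxifen mice, 29807 of the 55675 kept in the whole series.

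Tamoxifen binds the estrogen receptors ERα and ERβ, encoded by Esr1 and Esr2, and acts as an antagonist or as a partial agonist depending on the tissue. The hypothalamus-POA holds the neurons that use estrogen to tune body temperature, reproduction, feeding and movement, and many of them signal through neuropeptides. Tamoxifen also binds enzymes of late cholesterol synthesis, Ebp among them, so that sterol genes are a second set through which the drug can be read.

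Summed over kept cells, an oil library had 1717573 to 3930551 UMIs and a tamoxifen library 3118886 to 5457033, with a median of 641.5 to 787 and of 563 to 677 UMIs per cell. Library S10, an oil library, stood apart: 10.6% of its UMIs fell on genes whose introns exceed 100000 bp, against 17.0% to 20.9% in the other 7 libraries, and its median correlation with the other libraries of the series was 0.868, against 0.949 to 0.974. Results are therefore also given without it, which leaves 2 oil mice. Libraries S13 and S16 shared 359 kept barcodes with each other, and no other pair of wild-type libraries shared more than 42. Barcodes that any 2 of the 16 libraries shared made up 7.45% of the cells of S13 and 9.81% of those of S16 but at most 1.72% in the other 6. The brain block was checked against 10 lists of cell type markers. All members of 9 lists and the 9 of 10 oligodendrocyte precursor markers found in the files were detected in every library. In a sum over a library, fewer cells of a type and less RNA per cell cannot be told apart.

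No gene differed between tamoxifen and oil in wild-type mice past the threshold. UMIs were summed over the kept cells of each mouse, so that the mouse was the unit, and 16133 genes were tested with edgeR's quasi-likelihood test. Of these, 0 had a Benjamini-Hochberg adjusted p under 0.05 (percent called: 0), and the smallest adjusted p was 0.9998. An unadjusted p under 0.05 was found for 301 genes (1.87%), of which 131 were higher with tamoxifen (0.812%) and 170 lower (1.05%). DESeq2 also called 0 genes, with 243 at an unadjusted p under 0.05. The median absolute log2 fold change was 0.14 and the median standard error 0.23, and effects of the size of 1 standard error cannot be told from none at this number of mice. Without S10, 0 of 16668 genes passed, 700 had an unadjusted p under 0.05 (4.2%) and the smallest adjusted p was 0.0672. What follows describes the genes by their levels, and none of them passed the adjustment in the sums over whole libraries.

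Somatostatin (Sst), an inhibitory peptide of interneurons and of the neurons that restrain growth hormone release, was among the 10 genes with the smallest p in the higher direction. Sst lies on chromosome 16, 23889573 to 23890958, minus strand, in mm10. Levels are given as UMIs per 1000000 UMIs of the kept cells of a library (CPM). Sst was at 47.2, 52.2 and 62.8 CPM in the oil mice S1, S5 and S10, and 278, 296, 98.0, 99.6 and 86.6 in the tamoxifen mice S3, S8, S9, S13 and S16. All 5 tamoxifen mice lay above the 3 oil mice, with S3 and S8 far above the other 3. The log2 fold change was 1.66 (SE 0.48, unadjusted p = 0.0063, edgeR adjusted p = 0.9998), and 1.82 without S10. Groups failed to overlap in this direction at 147 of the 16133 genes (0.911%) and in the opposite direction at 241 (1.49%).

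The somatostatin transcripts lay mostly in neurons. Cells were put in a class such as the neuron-like one when at least 3 of their UMIs fell on that class's 10 marker genes and at least 2 times as many as on any other list. Neuron-like cells held 91.1% of the Sst UMIs, and Sst was at 114, 147 and 209 CPM of this class in S1, S5 and S10 against 626, 864, 460, 394 and 317 in S3, S8, S9, S13 and S16. The lowest tamoxifen mouse was above the highest oil mouse, from mostly the same UMIs as in the whole libraries. Within neuron-like cells the log2 fold change was 1.77 (unadjusted p = 0.000283), with an adjusted p of 0.9997 in edgeR and of 0.0564 in edgeR without S10. DESeq2 gave 0.00337, the 1 call among its 53658 tests over 9 classes (0.00186%), and edgeR with no filter on low counts gave 0.00563.

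Few neurons were rich in Sst. Neuron-like cells with at least 10 Sst UMIs numbered 2, 2 and 4 in S1, S5 and S10 and 16, 14, 8, 11 and 7 in S3, S8, S9, S13 and S16. Per 1000 neuron-like cells this was 6.97, 4.41 and 10.6 in the oil mice. In the tamoxifen mice it was 19.7, 28.1, 16.9, 17.5 and 15.4, without overlap. The minimum of 10 Sst UMIs was chosen after the values were seen. Cells this rich in Sst held 46.9% to 64.7% of the transcript's UMIs in the oil libraries and 76.7% to 89.6% in the tamoxifen libraries. The median Sst count of these neuron-like cells, 19, 64 and 28 UMIs with oil and 32, 23, 35, 24 and 33 with tamoxifen, overlapped between the groups. So did the share of neuron-like cells with any Sst UMI, at 3.48% to 4.50% with oil and 3.81% to 7.03% with tamoxifen, at a median depth of 1488 to 2041 and 1323.5 to 1853 UMIs per cell. Astrocyte-like cells, which should lack Sst, had an Sst UMI in 0% to 1.36% and 0.388% to 1.42%. The part that the number of such neurons in each dissection played was not tested.

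**Figure D1:**
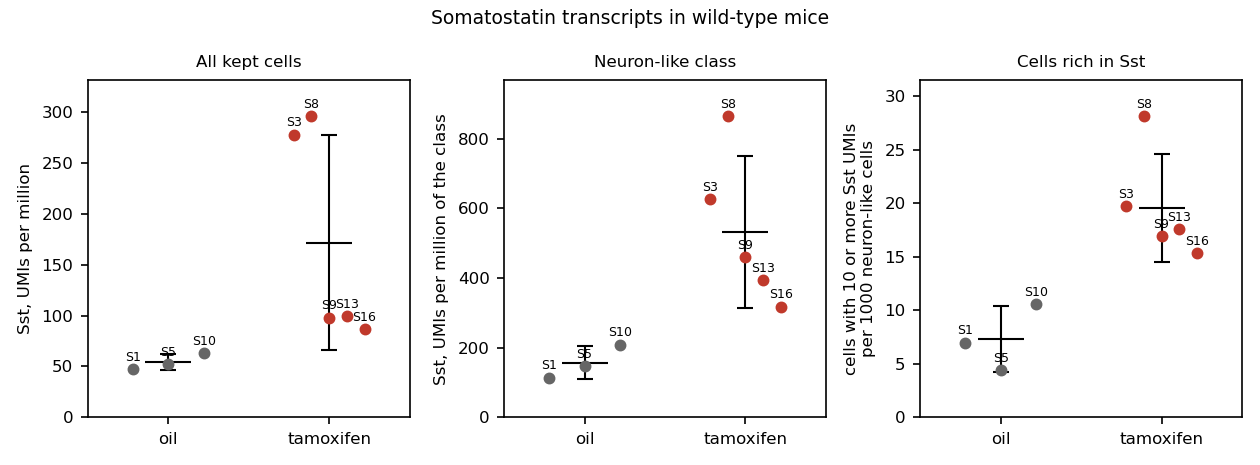
Somatostatin transcripts in the 3 oil and 5 tamoxifen mice, 1 point per library, with the mean as a line and the SD as bars. From left to right the vertical axes give Sst CPM in all kept cells, the same in neuron-like cells, and neuron-like cells with at least 10 Sst UMIs per 1000; in each panel the lowest tamoxifen mouse, S16 in all 3, lies above the highest oil mouse, S10.

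The start of the Sst gene holds the cAMP response element through which its transcription is known to follow neuronal signalling, and this is shown because Sst is described in most detail here. The element lies 48 to 41 bases upstream of the RefSeq start of Sst. The span given above for Sst is from GENCODE, begins farther upstream and contains the element. The stretch below is from the RefSeq promoter window on GRCm38.p6, chr16:23890875-23890902, minus strand, read 5′ to 3′, with the element in capitals.
Sst: cctccttggcTGACGTCAgagagagagt
The element TGACGTCA, which reads the same on both strands, occurred in the windows of 549 of 27025 genes (2.03%), from 250 bases before to 50 after the start, and in 3 of the 76 named genes with a window (Sst, Chgb and Dio2). The palindromic estrogen response element was in the windows of 20 genes (0.0740%) and in 0 of the 76. Estrogen receptor sites commonly lie far from gene starts, outside these windows.

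Of the 36 hypothalamic neuropeptide genes listed, 30 were tested, 0 passed the adjustment, and 5 had an unadjusted p under 0.05, each higher with tamoxifen: Sst, oxytocin (Oxt), neurokinin B (Tac2), cholecystokinin (Cck) and gastrin-releasing peptide (Grp). Over all genes tested, 0.812% had such a p in this direction. Of the 30 genes, 18 were positive and 12 negative, with a median of 0.08 on the log2 scale beside 0.02 for all genes tested. Without S10 the median was 0.44 over 31 genes, beside 0.01 for all genes, with 6 higher and 1 lower at an unadjusted p under 0.05. Over all 16668 genes tested without S10, 269 were higher and 431 lower at such a p.

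Oxt, the peptide of magnocellular neurons that act on uterus and breast and of pathways for social behaviour, was at 39.0, 96.9 and 139.6 CPM in S1, S5 and S10 and at 190.4, 825, 44.3, 436 and 614 in S3, S8, S9, S13 and S16. The log2 fold change was 2.18 (SE 0.83, unadjusted p = 0.025), but S9 lay within the oil range, and when every deposited barcode was counted the fold change was -0.25. Single cells weighed heavily, since 1 cell of S16 alone held 2179 Oxt UMIs and 1 of S8 held 1618. Oxt UMIs were also found in 1.28% to 6.27% of the astrocyte-like cells with oil and 1.61% to 6.98% with tamoxifen, which should lack the gene, against 2.64% to 10.6% and 3.59% to 11.2% of the neuron-like cells.

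Tac2, which arcuate neurons release to drive hot-flash-like heat loss and pulses of gonadotropin, was at 30.9, 23.7 and 34.3 with oil and at 62.4, 51.6, 20.7, 62.6 and 118 with tamoxifen, a log2 fold change of 1.10 (unadjusted p = 0.04). Of all 8 mice, S9 was the lowest and S16 the highest, and S16 also had the most neuron-like cells with at least 10 Tac2 UMIs, 41.7 per 1000 against 2.20 to 17.5 in the other libraries.

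Cck, a satiety peptide, was at 51.2, 45.8 and 61.2 CPM with oil and at 71.0, 102, 64.7, 60.4 and 73.8 with tamoxifen. Its log2 fold change was 0.49 (unadjusted p = 0.0404) and only S13 lay within the oil range. Grp was at 4.08, 6.87 and 5.54 with oil and at 14.3, 13.8, 7.88, 13.6 and 5.99 with tamoxifen, a log2 fold change of 0.96 (unadjusted p = 0.0249), with S16 within the oil range. Galanin (Gal), an estrogen-sensitive peptide of preoptic neurons, was at 37.8, 139 and 182 with oil and at 307, 195, 95.3, 224 and 269 with tamoxifen. Only S9 fell below the highest oil mouse, and the log2 fold change was 0.84 (SE 0.50, unadjusted p = 0.125), or 1.29 without S10. Among neuron-like cells the groups overlapped more. Those with at least 10 Gal UMIs were 3.48, 33.0 and 37.0 per 1000 in S1, S5 and S10. In S3, S8, S9, S13 and S16 they were 34.5, 22.1, 31.7, 52.6 and 37.3 per 1000.

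The other peptides named by rule did not separate the groups. Vasopressin (Avp), the antidiuretic hormone, was at 535 to 1512 CPM with oil and at 530 to 4984 with tamoxifen, the highest value being that of S8. Orexin (Hcrt), which maintains wakefulness, was at 7.12 to 103 and 6.27 to 598, and 3 neuron-like cells of S16 held a median of 718 Hcrt UMIs each. Tachykinin 1 (Tac1), the substance P precursor, was at 151, 82.9 and 48.5 with oil and at 23.3 to 75.8 with tamoxifen, the lowest fold change of the list at -0.92 (unadjusted p = 0.0679). Of the arcuate feeding peptides, the appetite-suppressing Pomc had a log2 fold change of 0.83, and the appetite-driving Npy and Agrp had -0.70 and -0.76 over all 8 libraries but 0.08 and 0.27 without S10. Ghrh, which drives growth hormone release, went from -0.90 to 1.11 without S10, and Trh and Pmch were at -0.36 and 0.02. Kiss1, the arcuate and preoptic driver of gonadotropin release, had too few UMIs to be tested, at 0 to 0.264 CPM with oil and 0 to 1.19 with tamoxifen. The list of peptide-processing genes had a median of 0.01 over 11 genes, 0 with an unadjusted p under 0.05.

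The estrogen receptors themselves showed no difference that could be told from the spread of the oil mice. Esr1 was at 90.8, 41.7 and 16.4 CPM in S1, S5 and S10 and at 69.2, 54.8, 54.6, 40.5 and 46.1 in the tamoxifen mice. Its log2 fold change was 0.17, with a 95% interval from -0.74 to 1.08, and -0.22 without S10. Esr1 spans 4611593 to 5005614 of chromosome 10, and it was lowest in S10, the library that undercounted genes with long introns. Esr2 was at 16.9, 13.5 and 1.32 with oil and at 6.49 to 17.4 with tamoxifen (log2 fold change 0.16, and -0.38 without S10). Gper1, a membrane estrogen receptor, was at 4.66 to 23.2 and 7.16 to 33.7. The receptor list, 6 genes that include others besides Esr1, Esr2 and Gper1, had a median of 0.22 with all libraries and -0.21 without S10.

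Genes known to respond to estrogen gave the same picture. The signs counted below take no account of whether estrogen raises or lowers a gene. The progesterone receptor (Pgr), a classical estrogen target, was at 16.9, 21.1 and 2.11 CPM with oil and at 20.6, 13.8, 12.1, 10.8 and 7.48 with tamoxifen. Its interval ran from -1.24 to 1.23 on the log2 scale, too wide to exclude a change of more than 1 log2 unit in either direction. Pgr was lowest in S10. Whether that library's undercount of genes with long introns extends to Pgr was not tested. Its fold change took either sign when single mice were left out. Greb1, a cofactor that estrogen receptors induce, was at 12.8, 8.90 and 5.28 with oil and at 6.73 to 13.4 with tamoxifen, with a log2 fold change of 0.23. Of 25 estrogen response genes tested, 12 were positive and 13 negative, the median was 0.00, and 1 in each direction had an unadjusted p under 0.05. These were Tac2 and, lower, the angiogenic factor Vegfa, at 130, 111 and 139 with oil and at 66.5, 99.1, 93.6, 106 and 100 with tamoxifen. The groups did not overlap for Vegfa (log2 fold change -0.44, SE 0.18, unadjusted p = 0.0312), and without S10 the value was -0.31. The 20 nuclear receptor coregulators had a median of 0.00 and 0 with such a p.

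**Figure D2:**
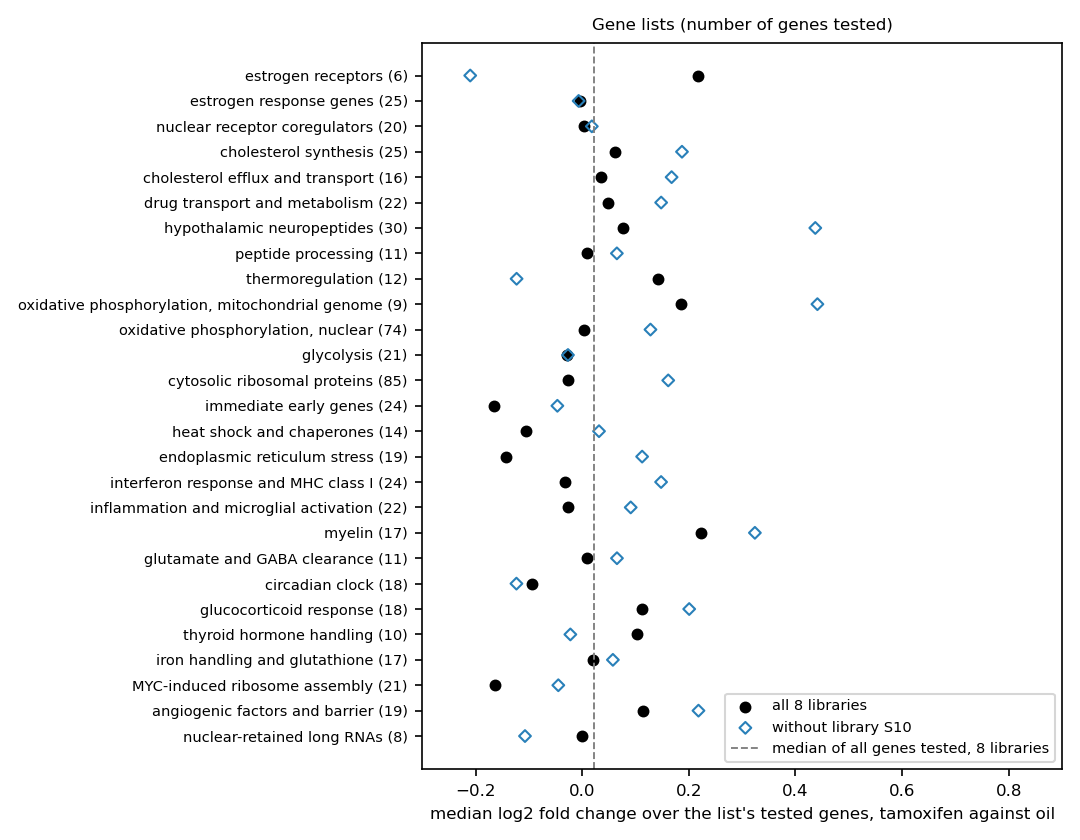
Median log2 fold change, tamoxifen against oil, over the tested genes of each of the pathway lists (cell type marker lists are not plotted), with the number of tested genes in parentheses. Filled circles use all 8 libraries, open diamonds leave out library S10, and the dashed line is the median of all genes tested (0.02); the diamonds of the neuropeptides (0.44) and of the mitochondrially encoded respiratory genes (0.44) lie farthest to the right of those plotted.

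Sterol genes stayed close to their levels in oil mice. Ebp, the sterol isomerase that tamoxifen binds, was at 19.2, 31.3 and 40.4 CPM with oil and at 28.5 to 32.9 with tamoxifen. Sqle and Insig1, which respond to the sterol-regulated transcription factor SREBP2, had log2 fold changes of 0.05 and -0.12. Of 25 cholesterol synthesis genes tested, 0 had an unadjusted p under 0.05 and the median was 0.06, or 0.19 without S10. The 22 genes of drug transport and metabolism had a median of 0.05, 0 of them with such a p.

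Besides Sst, the 10 genes with the smallest p in the higher direction included Lpl, Fmo2, Cyp2j12, Mttp, Ptprr and Cmbl. Lipoprotein lipase (Lpl), which frees fatty acids from lipoproteins and which reactive microglia express, was at 7.57, 17.3 and 11.9 CPM in the oil mice and at 18.5, 25.7, 25.3, 22.1 and 27.4 in the tamoxifen mice. The groups did not overlap, and the log2 fold change was 0.91 (SE 0.26, unadjusted p = 0.00573). Microglia-like cells held 31.0% of its UMIs, the most of any class, and within them Lpl was at 28.8 to 69.9 CPM of the class with oil and at 80.0 to 157 with tamoxifen (log2 fold change 1.43, unadjusted p = 0.000878, edgeR adjusted p = 0.941). Fmo2, a flavin monooxygenase found mostly in endothelial-like cells (68.0% of its UMIs), was at 8.73, 11.96 and 15.6 with oil and at 24.8, 26.3, 23.1, 16.7 and 23.2 with tamoxifen, a log2 fold change of 0.87 (unadjusted p = 0.00549).

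Cyp2j12, a cytochrome P450 with 89.8% of its UMIs in oligodendrocyte-like cells, was at 5.82, 12.7 and 10.3 with oil and at 15.7 to 20.5 with tamoxifen (log2 fold change 0.87). Mttp, which loads lipid onto apolipoprotein B, was at 12.4 to 14.8 and 17.2 to 24.7 (0.58). The tyrosine phosphatase gene Ptprr was at 36.7 to 43.8 and 49.4 to 58.6 (0.40), and Cmbl, a hydrolase, at 12.2 to 18.3 and 21.99 to 27.7 (0.61). The groups did not overlap for any of these 4. Nor did they for 71 of the 131 genes that were higher at an unadjusted p under 0.05. The 3 remaining genes of the 10, Gm10664, 0610009E02Rik and 1700084C06Rik, are little described and had at most 6.97 CPM in any library.

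**Figure D3:**
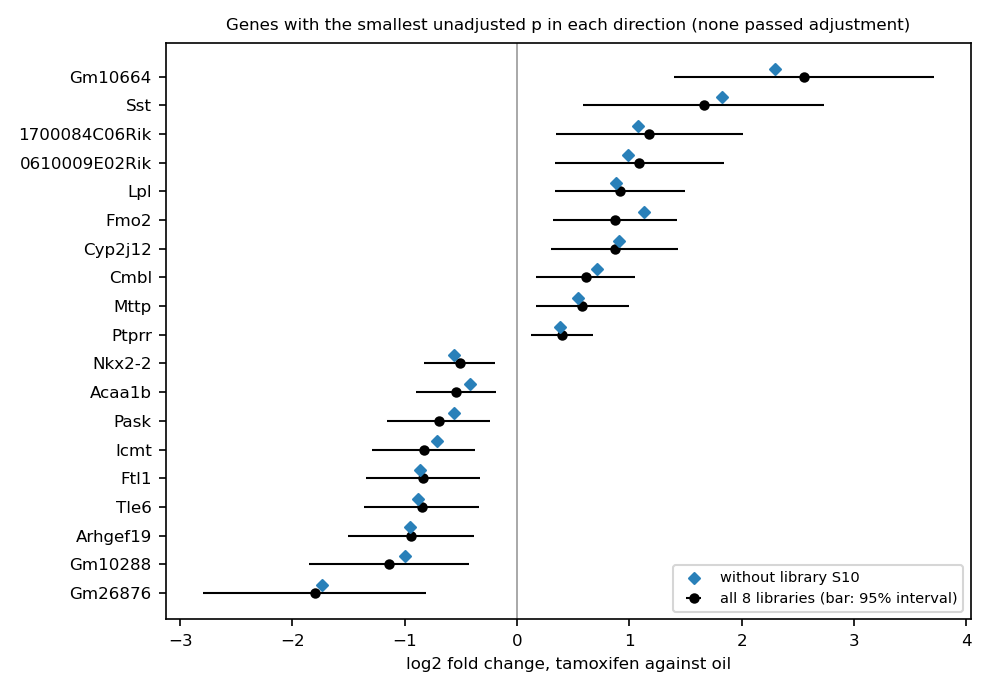
Genes with the smallest unadjusted p in the comparison of tamoxifen with oil, 10 higher and 9 lower. The horizontal axis is the log2 fold change, circles with bars give the value and its 95% interval from all 8 libraries, and diamonds give the value without library S10; none of them passed the adjustment, and each kept its sign without S10.

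The lower genes with the smallest p included Nkx2-2 and Tle6. Nkx2-2, a homeodomain factor of ventral progenitors and of the oligodendrocyte lineage, was at 36.7, 42.0 and 32.4 CPM in the oil mice and at 23.6, 26.3, 29.3, 24.0 and 26.2 in the tamoxifen mice, without overlap (log2 fold change -0.51, SE 0.14, unadjusted p = 0.00507). Tle6, a corepressor, was at 8.44 to 11.6 and 4.74 to 5.86.

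The iron storage subunit Ftl1 was at 289, 167 and 193 CPM with oil and at 106, 172, 114, 103 and 103 with tamoxifen. Only S8 lay within the oil range, and the log2 fold change was -0.84 (SE 0.23, unadjusted p = 0.0042). Ferritin light chain has pseudogenes of near-identical sequence, so that its reads could be split or lost in counting. In microglia-like cells Ftl1 was at 703 to 1125 and at 384 to 652 CPM of the class, without overlap (log2 fold change -1.02, edgeR adjusted p = 0.941). Gpx4, the glutathione peroxidase that protects membranes from iron-driven oxidation, had a log2 fold change of -0.59 (unadjusted p = 0.0211) and overlapped between the groups. These were the 2 of 17 iron and glutathione genes with an unadjusted p under 0.05, and the median of the list was 0.02.

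Icmt, which methylates the tails of Ras-family proteins, was at 18.6, 13.7 and 17.7 with oil and at 10.7, 7.37, 10.3, 9.49 and 8.48 with tamoxifen (log2 fold change -0.83, unadjusted p = 0.00232). Arhgef19, a guanine nucleotide exchange factor with 56.3% of its UMIs in astrocyte-like cells, was at 12.9 to 14.6 and 4.58 to 8.98 (-0.94). Neither gene overlapped between the groups, nor did 103 of the 170 genes that were lower at an unadjusted p under 0.05. Both lie on chromosome 4, at 152297227 to 152307121 and at 141239499 to 141257564. Pask, a metabolic sensor kinase, and Acaa1b, a peroxisomal thiolase, had log2 fold changes of -0.70 and -0.54, and the 2 noncoding genes Gm26876 and Gm10288 of -1.80 and -1.14. Gm10288 is a processed pseudogene, whose reads can come from its parent gene.

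With all 8 libraries, at most 2 genes of each other pathway list had an unadjusted p under 0.05. Nuclear genes of oxidative phosphorylation had a median of 0.00 over 74 genes, with 1 lower at an unadjusted p under 0.05 (Ndufs5, -0.47), and the 9 tested genes of the mitochondrial genome had 0.18 and 0 such genes. Glycolysis had a median of -0.03 over 21 genes and 1 such gene (Pgk1, -0.50). The 85 ribosomal protein genes had -0.03 and 0. Of all 16133 genes tested, 8759 were positive and 7374 negative. Immediate early genes were negative in 20 of 24 cases, with a median of -0.17, with Jund lower (-0.38, groups not overlapping) and Nr4a3 higher (0.50). Myelin genes were positive in 16 of 17 cases, with a median of 0.22, and 0 had an unadjusted p under 0.05. The lists of clock genes (-0.09, with Cry2 and Per3 lower at -0.37 and -0.43), heat shock (-0.10, with Dnajb1 lower at -0.39), endoplasmic reticulum stress (-0.14), MYC-induced ribosome assembly (-0.16), interferon response (-0.03) and glucocorticoid response (0.11) had at most 2 such genes each. The MYC-induced ribosome assembly genes were negative in 19 of 21 cases, and the groups did not overlap for 3 of them, each lower (Nolc1, Rrp9 and Cad, beside 1.49% of all genes), but 0 had an unadjusted p under 0.05 and without S10 the median was -0.045. Leaving out S10 moved the median of the mitochondrially encoded genes from 0.18 to 0.44 and that of ribosomal proteins from -0.03 to 0.16. Immediate early genes moved from -0.17 to -0.05 and myelin genes from 0.22 to 0.32. Without S10, 4 of 17 myelin genes and 3 of 85 ribosomal protein genes were higher at an unadjusted p under 0.05. Over all 16668 genes, 269 were higher at such a p. The medians of heat shock (0.03), endoplasmic reticulum stress (0.11) and interferon response (0.15) changed sign without S10.

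Within the marker classes too, no gene passed in the 9 classes with at least 20 cells in enough libraries (0 of 53658 tests, percent called: 0). The p values were adjusted within each class, not over the 9 classes together, here and in the alternative fits. Unadjusted p under 0.05 were found for 373 of 11514 genes in neuron-like cells, 267 of 9900 in astrocyte-like, 252 of 8494 in oligodendrocyte-like and 220 of 5085 in microglia-like cells. Ependymal-like cells had 512 of 5998, 413 of them higher, from 2 oil (S5 and S10) and 5 tamoxifen libraries, since S1 had fewer than 20 such cells. S10, which undercounted genes with long introns, had 243 ependymal-like cells and S5 had 58. Without S10 only 1 oil library is left, so the part that S10 played in this count cannot be told. DESeq2 called Sst in neuron-like cells, as given above, and no other gene. With no filter on low counts edgeR called 134 of 179193 (0.0748%), Sst in neuron-like cells among them. Of these calls, 102 were in ependymal-like cells, 99 of them higher with tamoxifen. Tanycyte-like cells reached 20 in only 1 oil and 1 tamoxifen library and were not tested.

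Leaving out S10 gave 5 calls of 58005 tests (0.00862%), all of them lower with tamoxifen. With all 8 libraries and no filter on low counts, edgeR also called 4 of them (Cep85, Gm26880, Apod and Chga), at adjusted p of 1.51e-27, 2.67e-17, 2.6e-05 and 5.29e-15. In this setting edgeR also called Ttr in oligodendrocyte-like cells, at an adjusted p of 1.39e-91. Ttr was at 6497 CPM in the whole library of S8 beside a tamoxifen median of 1.996. A small adjusted p in this setting can therefore rest on 1 mouse. Cep85, a centrosome protein gene at 134129858 to 134187112 of chromosome 4, was at 499.9 and 575 CPM in the microglia-like cells of S1 and S5, at 12.3 in S10 and at 5.72 to 36.3 in the tamoxifen mice. The noncoding gene Gm26880, also on chromosome 4, was at 208 and 210 in S1 and S5, at 0 in S10 and at 0 to 5.81 with tamoxifen. Of the Esr1 cKO libraries, which are not part of the comparison, S11 from a tamoxifen mouse had 190.2 for Cep85 and 64.7 for Gm26880. Among the wild-type libraries the high ones, S1 and S5, were oil libraries, while the oil library S10 was low. S11 differs from them in genotype as well as in treatment. For Cep85 and Gm26880 the adjusted p of 3.37e-15 and 6.12e-12 (edgeR, microglia-like cells without S10) compared S1 and S5 with the 5 tamoxifen libraries. The cause was not tested. Cnbd2 in the same class was at 198 and 179 in S1 and S5, at 31.3 to 72.6 with tamoxifen and at 0 in S10. It was also at 0 in S11, while the other Esr1 cKO libraries were at 32.2 to 165. S10 and S11 were the libraries with the lowest shares of UMIs on genes with long introns, 10.6% and 10.96%. Whether this undercount bears on Cnbd2 was not tested. Apod, a lipid carrier, was called in mural-like cells (edgeR adjusted p = 0.0181), where it was at 869 CPM in S5, 230.2 in S10, 0 in S1 and 41.7 to 211 with tamoxifen. Chga, a protein of secretory granules, was called in oligodendrocyte-like cells (edgeR adjusted p = 0.00127), where it was at 295 in S5, 34.4 in S1, 5.96 in S10 and 10.02 to 62.2 with tamoxifen. For both, S5 was the high library.

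**Figure D4:**
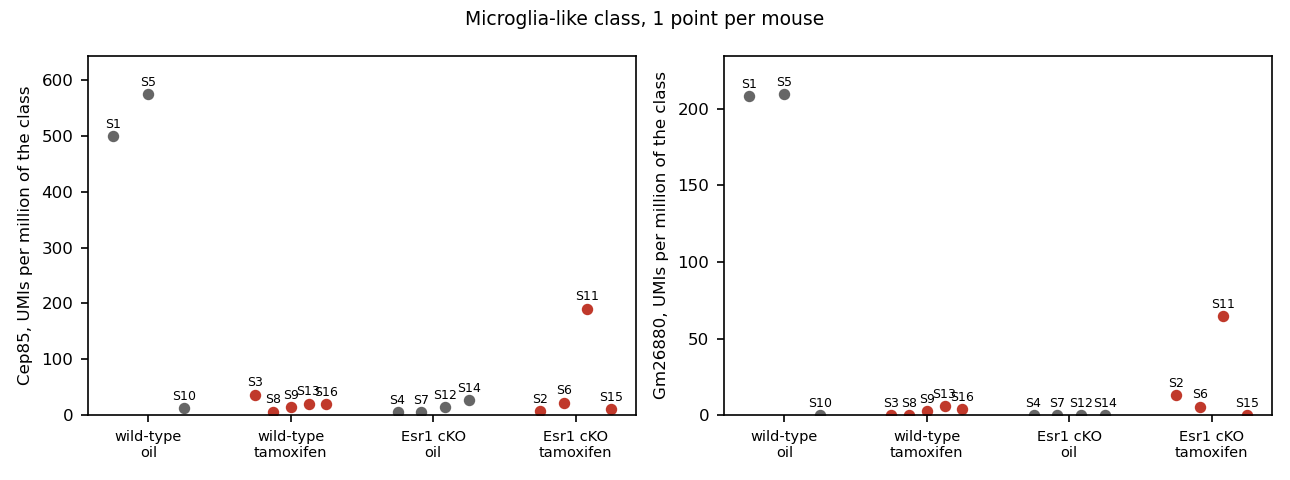
Cep85 and Gm26880 in microglia-like cells of all 16 mice, in CPM of the class on the vertical axes, 1 point per library by group. S1 and S5 of the wild-type oil group and S11 of the Esr1 cKO tamoxifen group stand above the other libraries, and S10 of the oil group is at 12.3 and 0.

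The shares of the 10 marker classes were compared by an exact permutation test, which cannot give a p below 0.0179 with these numbers of mice, so that a difference in 1 class alone could not pass after adjustment over 10 classes. Neuron-like cells were 14.04% ± 2.34 of the kept cells with oil (SD, n = 3 mice) and 14.1% ± 5.43 with tamoxifen (n = 5), with an exact permutation p of 1. Oligodendrocyte precursor-like cells were 5.15%, 3.68% and 2.64% with oil and 2.31% to 3.84% with tamoxifen (exact permutation p = 0.179 over 56 splits, two-sided, adjusted 0.893 over 10 classes), and with a stricter cut of 5 marker UMIs they were 3.13% ± 0.795 against 1.88% ± 0.156, at the smallest p that the design allows (0.0179, exact, adjusted 0.179). Oligodendrocyte-like cells were 14.8% ± 0.692 with oil and 17.1% ± 2.87 with tamoxifen (exact permutation p = 0.268, adjusted 0.893). Ependymal-like cells were 0.859%, 1.78% and 7.56% with oil, the last in S10, and 0.89% to 4.02% with tamoxifen. In the oil mice tanycyte-like cells were at 1.49% in S1 and at most 0.218% in S5 and S10. With tamoxifen they were at 0.0556% to 0.473% (exact permutation p = 0.214, adjusted 0.893). The median over their markers in whole libraries was -0.50 on the log2 scale. Of these 10 markers, 4 were lower at an unadjusted p under 0.05, beside 1.05% of all genes. The summed haemoglobin genes were at 1096 to 5172 CPM with oil and 2990 to 6246 with tamoxifen, and the summed choroid plexus genes at 55.0 to 79.8 and 57.7 to 6622, the last in S8. The class cuts are ranges on a count, and 156 class members in the oil libraries and 462 in the tamoxifen libraries sat at the minimum of 3.

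**Figure D5:**
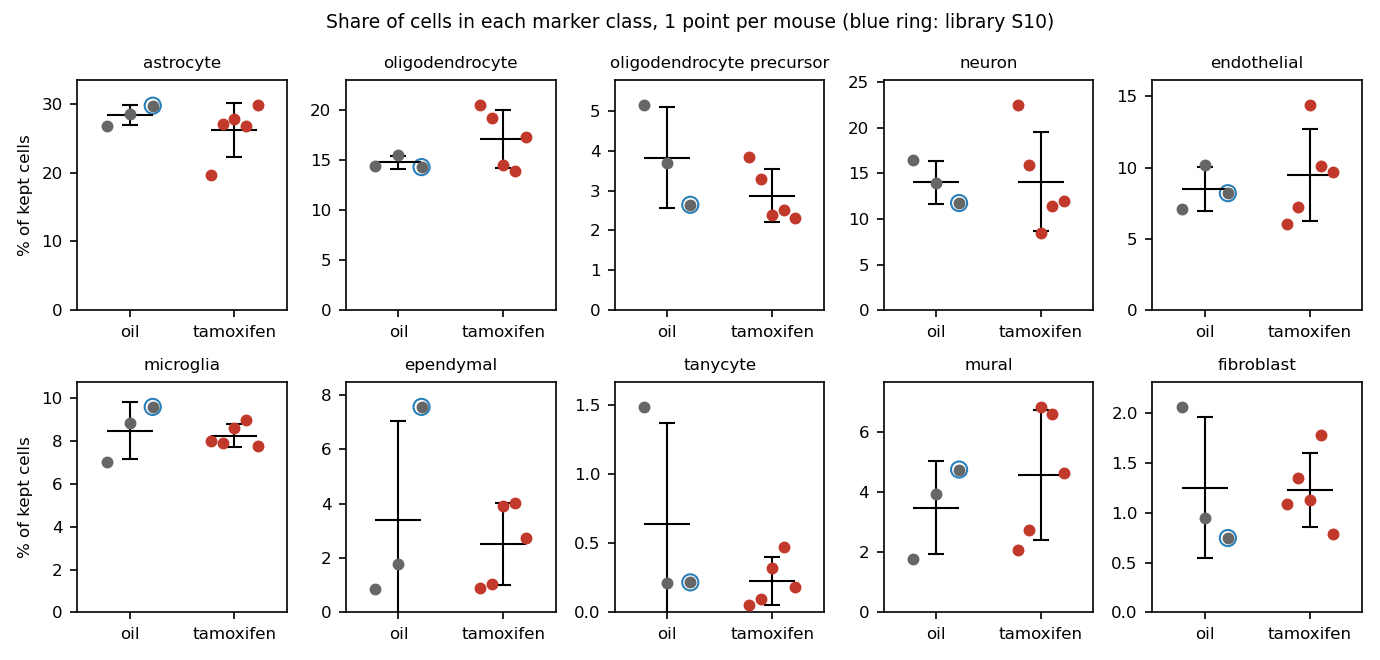
Share of kept cells in each of 10 marker classes, in percent on the vertical axes, 1 point per mouse, with the mean as a line and the SD as bars (cut at 0). Library S10 is ringed; it has the highest ependymal-like share at 7.56%, and oil and tamoxifen mice overlap in every class.

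The interaction of genotype with treatment asked whether tamoxifen acted differently in Esr1 cKO mice, in which the floxed Esr1 is deleted by an Nkx2-1 Cre transgene. In the fit of all 16 libraries, 0 of 16626 genes passed (percent called: 0), 708 had an unadjusted p under 0.05 (4.26%) and the smallest adjusted p was 0.958. The Esr1 cKO tamoxifen library S11 undercounted genes with long introns as S10 did. Genes whose introns exceed 100000 bp held 10.96% of the UMIs of S11 and 10.6% of those of S10. The next lowest library was S16, at 17.0%. The median correlation of S11 with the other libraries was also next lowest after S10 (0.884). Without S10 and S11, 0 of 16844 genes passed and 1068 had an unadjusted p under 0.05. The part that the undercount played in the interaction was not tested further. DESeq2 called 1 gene, Aurkaip1, a mitochondrial ribosome component, which was at 68.7, 82.2 and 75.7 in the wild-type oil mice and at 50.4 to 60.9 in the wild-type tamoxifen mice. In edgeR its log2 fold change was -0.45 with tamoxifen in wild-type mice and 0.49 in the Esr1 cKO, and DESeq2 gave a difference of 0.96 (SE 0.20, adjusted p = 0.0295). For Sst the fold change was 0.26 in Esr1 cKO mice, and the difference between genotypes had an unadjusted p of 0.0598 in edgeR.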

How the data were processed

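Cells were profiled by Drop-seq in 16 libraries, of which the 8 from wild-type mice were compared. The authors deposited whole-number UMI counts per gene and barcode for each mouse, without normalization. The submitters' processing notes name STAR 2.6 and mm10, while the annotation is not given in the sources used here. Every barcode had at least 20 genes, and at least 100 in S10, so that smaller ones had been removed before deposit, and the study's cell filter was applied here. Doublets were not called, and the class rule left out cells whose markers of another class came near those of their own. In sums of 1717573 UMIs or more, counting error is small for abundant genes. It weighs more on rare genes, Lpl, Fmo2, Cyp2j12 and Grp among them, and depth also limits the small classes.

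UMIs were summed per library and fitted in edgeR 4.0.16 (R 4.3.3, limma 3.58.1, TMM, filterByExpr, quasi-likelihood, Benjamini-Hochberg threshold 0.05), with DESeq2 1.42.0 as an alternative. The fits were tested on simulated counts. CPM are shares of all kept UMIs, without TMM. Intervals are 95%. Shares of cells were compared by exact two-sided permutation over mice (Python, scipy). Gene coordinates are from GENCODE vM21, which held 26661 of the 28683 symbols. Named genes were, by rule, the 10 with the smallest p in each direction where fewer than 10 passed, a set list of receptors, peptides and sterol genes, and in each list the gene with the smallest p in each direction. Of these, 4 genes are not reported here, 1 of them from the 10 lower genes. Cep85, Gm26880, Cnbd2, Cxcl13, Apod, Chga, Hbb-bs, Gpx4, Aurkaip1, Cck, Grp, Per3, Nolc1 and Rrp9 were named after their values were seen, as was the cell minimum of 10 Sst UMIs chosen. The members and lists were chosen with earlier results of these data known. The labels do not tie libraries to the 4 days of collection (4 mice each); successive fours of library numbers were tried as a block.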

Additional observations from a re-analysis of the deposited data

Results flagged for a closer look

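Of 106 named genes and class shares examined, 9 had 1 tamoxifen mouse far from the other 4, measured as its gap to the nearest mouse over the range of the group (limit 0.71 for 5 mice), which chance gives for about 1 in 20. The choroid plexus gene Ttr was at 6497 CPM in S8 beside a median of 1.996 (gap ratio 0.9997), so that its log2 fold change of 9.05 came from 1 mouse. S8 was also high for Avp, at 4984 beside a median of 1004 (0.841), and for Ftl1, at 172 beside 106 (0.837). S16 was high for Hcrt, at 598 beside 70.9 (0.785), and for Rpl32, at 565 beside 497 (0.782). S9 was low for mt-Nd4, at 2082 beside 2841 (0.914), and high for Malat1, at 19625 beside 12824 (0.724). S13 was high for Chga, at 316 beside 183 (0.782), and for 0610009E02Rik, at 6.97 beside 4.99 (0.795).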

How the results depend on the processing

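The count of 0 genes in whole libraries held under all 20 alternatives, including each library left out, the filters on cells and genes, other tools and scalings, a block of successive library numbers and, chosen after seeing the data, barcodes shared between libraries left out. Within classes the count of 0 became 134 with no filter on low counts, 102 of them in ependymal-like cells, 1 with DESeq2 and 5 without S10. For the interaction, DESeq2 gave 1. The causes were not tested. The labels give the groups no shared replicate number, and the block of successive library numbers, which may or may not follow the days of collection, gave 0 calls and 301 genes at an unadjusted p under 0.05, 99 higher and 202 lower, beside 131 and 170.

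Of the named results, none of which had passed, 23 genes and 4 class shares changed sign under 1 or more alternatives. The fibroblast share difference (-0.0267 percentage points) became 0.00112 with 5 marker UMIs and 0.0710 at 500 UMIs per cell. Without S10 the share differences became -1.11 for neurons, 0.343 for microglia and 1.20 for ependymal cells. Log2 fold changes with the block of library numbers were 0.55 for Pgr, -1.06 for Pmch, 0.0702 for Ebp and -0.0617 for Aldoc. With every deposited barcode they were 0.29 for Pgr, -0.25 for Oxt, -0.37 for Pmch, 0.0685 for Ebp, -0.0343 for Aldoc and 0.0387 for Trf. With under 5% mitochondrial UMIs they were 0.0117 for Pgr, 0.56 for Ghrh, 0.0942 for Ebp and -0.0438 for Sqle. With voom they were 0.49 for Pgr, -0.38 for Pmch and 0.0074 for Ebp. With no filter on low counts they were 0.0113 for Pgr, 0.0033 for Ebp and 0.0020 for Trf. Ebp was 0.0103 without TMM, 0.0066 without mt-, Rpl and Rps genes and 0.0249 without shared barcodes.

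With 1 mouse left out at a time, the log2 fold change ran from the first to the second value for Esr1 -0.22 to 0.86, Esr2 -0.38 to 0.57, Gper1 -0.052 to 0.82, Pgr -0.54 to 0.62, Greb1 -0.0069 to 0.49, Avp -0.24 to 1.31, Agrp -1.35 to 0.27, Npy -1.04 to 0.081, Trh -0.72 to 0.035, Ghrh -1.40 to 1.11, Pmch -0.49 to 0.51, Ebp -0.24 to 0.29, Sqle -0.053 to 0.27, Esrra -0.023 to 0.25, Pam -0.012 to 0.36, mt-Co1 -0.28 to 0.23, Aldoc -0.033 to 0.31, Trf -0.16 to 0.12, Dio2 -0.43 to 0.12, Srm -0.013 to 0.19, Rian -0.048 to 0.28 and Cnbd2 -0.19 to 0.94.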

Other observations

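Microglia-like cells of the oil mice S1 and S5 also held more Cxcl13, a B cell chemokine, at 52.1 and 38.8 CPM of the class, or 5 and 10 UMIs. S10 had 1 UMI and the 5 tamoxifen mice had 1 UMI among them, in S3. The highest library of all 16 was S6, an Esr1 cKO tamoxifen mouse, at 187.3.

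The red cell gene Hbb-bs was at 412, 2164 and 573 CPM in S1, S5 and S10 and at 1328 to 2549 in the tamoxifen mice, a log2 fold change of 0.89 (unadjusted p = 0.103). In the Esr1 cKO mice the same gene had a log2 fold change of 1.26 (unadjusted p = 0.0195).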
